A study of Mus musculus with 15 samples.

Results

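Ace, Agt, Agtr1a and Agtr2 encode 4 parts of the renin-angiotensin system, and their transcripts were followed through 15 bulk RNA-seq libraries of cultured mouse marrow and lung cells in 8 conditions. The 4 genes were taken by symbol from a table of 44674 genes and were selected on their levels over these conditions. Their levels are therefore given as a description, with no test. All 4 passed the filter on low counts that left 19399 genes for testing.

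The cells came from adult mice of 4 to 6 months used regardless of sex, with the genotype given as WT for every library in the sample labels. In the Tie2-CreERT2;Rosa26-tdTomato line, tamoxifen induces tdTomato under a Cre driven by the Tek promoter. Whole bone marrow (WBM) of such mice was grown in the endothelial medium EGM-2 for about 2 weeks, and CD45- tdTomato+ bone marrow endothelial cells (BMECs) were sorted by endomucin into P0 Emcn+ and P0 Emcn- BMECs. P1, P2, P3 and P4 Emcn- BMECs came from successive passages. Lung ECs were the Emcn- fraction of lung cultures in EGM-2. BM MSC were tdTomato+ mesenchymal cells of Osx-Cre;Rosa26-tdTomato mice, grown in MesenCult, so both the line and the medium differ from those of the BMECs. P4 had 1 library and the other 7 conditions 2 each. The labels give 4 batches. Replicate 1 of the P0 and lung conditions was in batch d and replicate 2 in batch a, replicate 1 of P1 to P4 was in batch b, and replicate 2 of P1 to P3 and both BM MSC libraries were in batch c. Batch and condition cannot be told apart between P0 or lung libraries and passaged or MSC libraries.

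In the renin-angiotensin system, renin cuts angiotensinogen (Agt) to angiotensin I, and angiotensin-converting enzyme (Ace), a peptidase on the cell surface, trims it to angiotensin II. Angiotensin II acts through the type 1 receptor (Agtr1a and, in rodents, its near copy Agtr1b), which raises vascular tone and promotes growth and fibrosis, while the type 2 receptor (Agtr2) often opposes it. Ace also breaks down bradykinin and the peptide Ac-SDKP, is abundant on lung endothelium, and is used as a marker of arterial endothelial cells.

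Depth ran from 9914620 to 39718807 counts a library. Levels are given as CPM, the counts scaled to the library's total, and a gene with 0 counts may have had up to 3, or 0.0755 to 0.303 CPM depending on the library. The labelled cell types were checked against their defining markers. Cdh5 (VE-cadherin) was at 6222 and 5118 CPM in the P0 Emcn+ BMECs, at 119 and 6.35 CPM in the P0 Emcn- BMECs, at 39.5 and 171 CPM in the lung ECs and between 0.0564 and 2.33 CPM at P1 to P4. Emcn (endomucin), whose protein was used for the sort, stood at 631 and 798 CPM in the P0 Emcn+ libraries. The P0 Emcn- replicates held 12.7 and 2.52 CPM of it, and the libraries from P1 to P4 0.925 to 3.68 CPM. The lung ECs, which the paper describes as sorted Emcn- cells, had 32.6 and 125 CPM. Both lung libraries, replicate 2 in particular, thus held more of the transcript than any library labelled Emcn-. The 10 endothelial markers together reached 10178 to 12155 CPM in P0 Emcn+ and 44.2 to 792 CPM in all other libraries labelled as endothelial, while the 7 fibroblast markers summed to 218 to 289 CPM in P0 Emcn+ and to 4082 to 20357 CPM in those others. The Emcn- libraries thus carry little of the endothelial markers that define their label. BM MSC held Sp7 (osterix), the gene whose promoter drives their Cre, at 2.50 and 5.60 CPM, against at most 1.51 CPM elsewhere. Endothelial signal differed between the BM MSC libraries, with Cdh5 at 156 and Pecam1 at 101 CPM in replicate 2 and a sum of 352 CPM, against 7.86, 15.02 and 40.4 CPM in replicate 1. Ace (10.4 against 2.02 CPM) and Agtr2 (27.1 against 100.2 CPM) differed between the same libraries, and the part of other cells was not tested. The 7 macrophage markers summed to 542 and 548 CPM in P0 Emcn+, to 189 and 228 CPM in P0 Emcn- and to 20.7 and 22.4 CPM in lung ECs. In P0 Emcn+ most of that sum was Lyz2, Cd68 and Cd14, while Ptprc reached at most 7.73 CPM and Adgre1 15.6 CPM.

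Promoters of Ace and Agt are shown because these genes, like Agtr1a, had their lowest mean levels in P0 Emcn+ BMECs and BM MSC. Sequences are the 150 bases before the RefSeq start site on GRCm38.p6, 5′ to 3′ on the gene's strand. Capitals mark 2 motifs searched on both strands over the 250 bases before each start, the TATA box (TATAAA, or TTTATA on the other strand) and the GC box (GGGCGG or CCGCCC). RefSeq gives Ace 2 start sites, one at the first exon and one inside the gene that starts the short form known from testis.
Ace, first start, chr11:105967798-105967947, plus strand: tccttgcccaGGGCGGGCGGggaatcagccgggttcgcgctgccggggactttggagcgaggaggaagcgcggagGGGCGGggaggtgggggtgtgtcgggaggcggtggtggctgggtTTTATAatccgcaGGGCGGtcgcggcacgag
Ace, inner start, chr11:105975039-105975188, plus strand: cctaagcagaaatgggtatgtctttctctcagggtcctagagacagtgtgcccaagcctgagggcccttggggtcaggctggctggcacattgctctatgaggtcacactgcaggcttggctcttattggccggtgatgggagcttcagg
Agt, chr8:124569707-124569856, minus strand: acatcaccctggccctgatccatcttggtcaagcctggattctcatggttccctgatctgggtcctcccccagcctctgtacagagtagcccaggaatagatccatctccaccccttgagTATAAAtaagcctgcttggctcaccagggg
The first Ace window holds 4 GC boxes, of which the first pair overlaps, and a TATA box on the other strand 31 bases before the start. The Agt window has a TATA box 30 bases before its start and no GC box, and the inner Ace window has neither motif. Agtr2 has an entry that is not printed, and Agtr1a has none. Among 32851 windows of 250 bases before a start in the same table, 12.4% hold a TATA box and 32.7% a GC box on either strand. These are matches of letters, not sites shown to be used, and counts per gene do not tell the 2 Ace starts apart.

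Ace (ENSMUSG00000020681) lies on chromosome 11 from 105967945 to 105989964, on the plus strand, with 5287 bases of exon. It was highest in the Emcn- BMECs. The P0 Emcn- libraries, sorted from the first culture, had 1981 and 2886 CPM. The passaged libraries had 3289 and 2717 CPM (P1), 2779 and 2402 CPM (P2), 2677 and 2339 CPM (P3) and 2281 CPM (P4). The lung ECs stood at 1068 and 2170 CPM, the P0 Emcn+ BMECs at 114 and 339 CPM, and BM MSC at 2.02 and 10.4 CPM. Ordered by mean level, P1, P2, P3, P0 Emcn- and P4 each overlapped the range of the next, whereas lung ECs, P0 Emcn+ BMECs and BM MSC were each apart from the condition above.

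Per kilobase of exon, Ace ranked 103 and 70 among 44118 genes in the P0 Emcn- BMECs, and between 67 and 99 at P1 to P4. It ranked 200 and 91 in lung ECs, 2173 and 653 in P0 Emcn+ BMECs, and 14061 and 10479 in BM MSC. At P1, 0.329% and 0.272% of all counts fell on this gene. The antisense gene Gm11651 overlaps Ace, and since the counting is not stated to use strand, reads of the pair could be shared. Gm11651 itself had at most 1.11 CPM in any library.

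By mean CPM, Ace was 10.7-fold lower in the Emcn+ than in the Emcn- fraction at P0 (227 ± 159 against 2433 ± 640 CPM, SD, n = 2 each). The mean difference of log2(CPM + 0.1) was -3.60 (SD of the replicates 0.83), and within batches the P0 Emcn- level was 8.51-fold higher in batch a and 17.3-fold higher in batch d. The log2 difference ran from -4.38 without P0 Emcn+ replicate 2 to -2.82 without P0 Emcn+ replicate 1. BM MSC (6.20 ± 5.91 CPM, SD, n = 2) had 392-fold less than P0 Emcn- BMECs. The log2 difference of -8.99 ran from -10.14 without BM MSC replicate 2 to -7.83 without replicate 1. Within batch c, which holds BM MSC and passaged libraries, they had 401-fold less than the mean of P1 to P3. In bulk libraries, fewer cells with the transcript and less transcript per cell cannot be told apart.

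Between lung ECs and P0 Emcn- BMECs, Ace was lower in lung in both batches (1.33-fold in a, 1.85-fold in d), but the libraries of the conditions overlapped. The log2 difference was -0.65 (SD 0.58), and ran from -1.16 without lung replicate 2 to -0.14 without lung replicate 1. Without lung replicate 2, the library with more Emcn, the lung differences from P0 Emcn- were -1.16 for Ace, -0.69 for Agt, -2.52 for Agtr1a and 1.43 for Agtr2, against -0.65, -0.94, -2.06 and 1.12 with it. P1 and P0 Emcn- libraries also overlapped, at a log2 difference of 0.32 (SD 0.30). Scaling by TMM or RLE factors in place of library totals shifts every difference between P1 and P0 Emcn- by 0.16 or 0.17, and those between BM MSC and P0 Emcn- by 0.09 or 0.14, with no change of direction for the members.

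**Figure D1:**
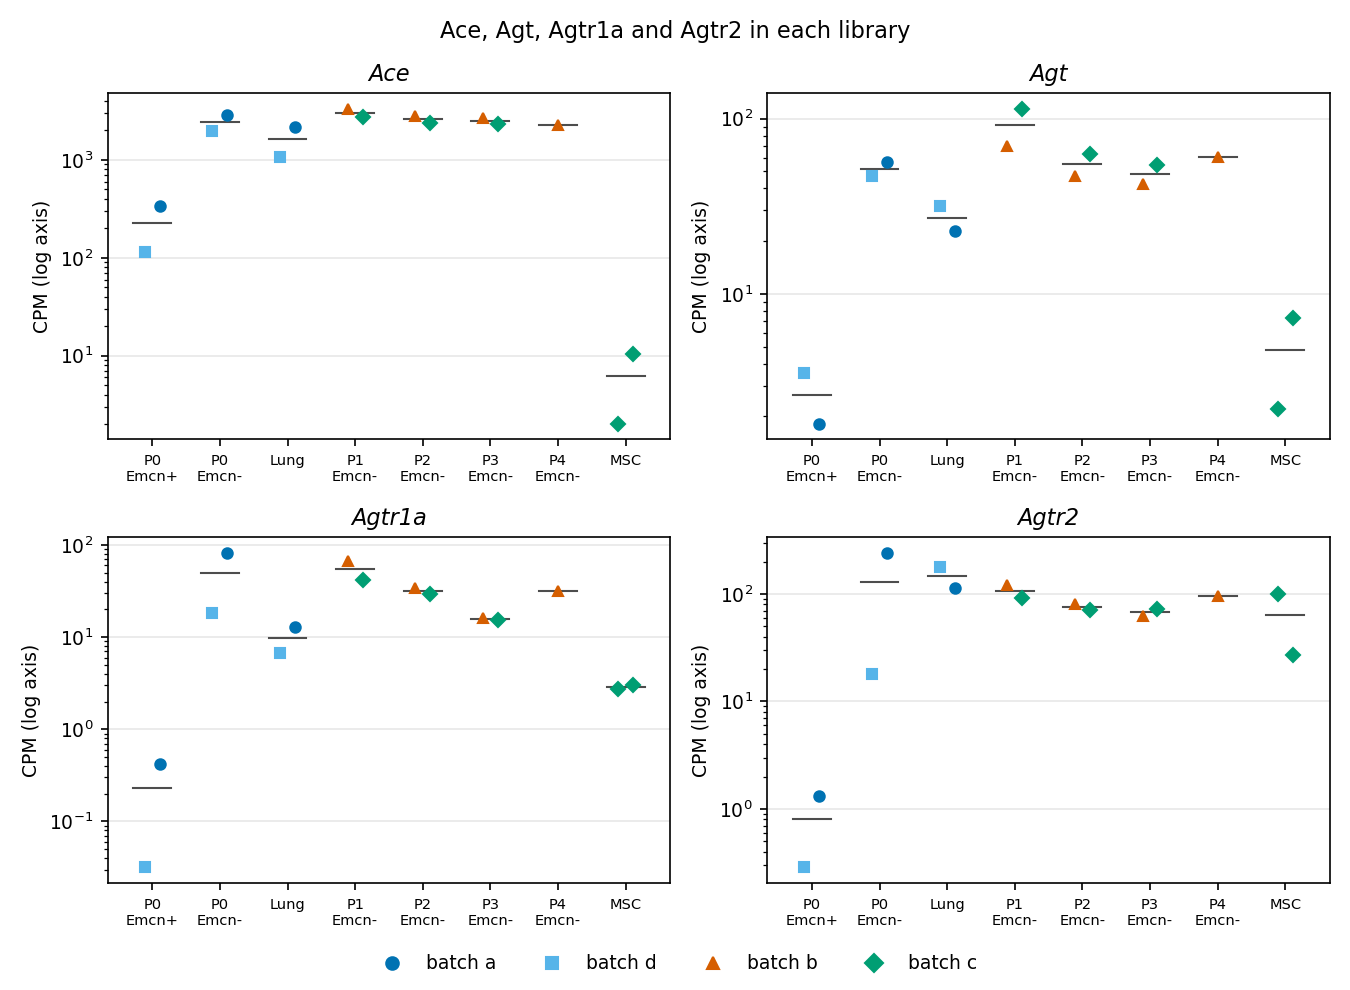
Level of Ace, Agt, Agtr1a and Agtr2 in CPM (log axis) in each of the 15 libraries, by condition, with the mean as a bar and the batch as symbol and colour. Ace lies at 1068 CPM or more in all Emcn- and lung libraries and at 2.02 and 10.4 CPM in BM MSC, and the 2 receptors are lowest in P0 Emcn+ BMECs.

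Ace was not highest where the endothelial markers were highest. The P0 Emcn+ libraries, with endothelial marker sums of 10178 and 12155 CPM, had 339 and 114 CPM of Ace. The P1 libraries, with endothelial sums of 70.6 and 59.5 CPM, had the highest mean level of Ace. Fibroblast markers were abundant in the Emcn- BMECs and lung ECs, but BM MSC, with fibroblast sums of 19302 and 10424 CPM, had the least Ace. The part of the cell makeup in these levels was not tested.

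**Figure D2:**
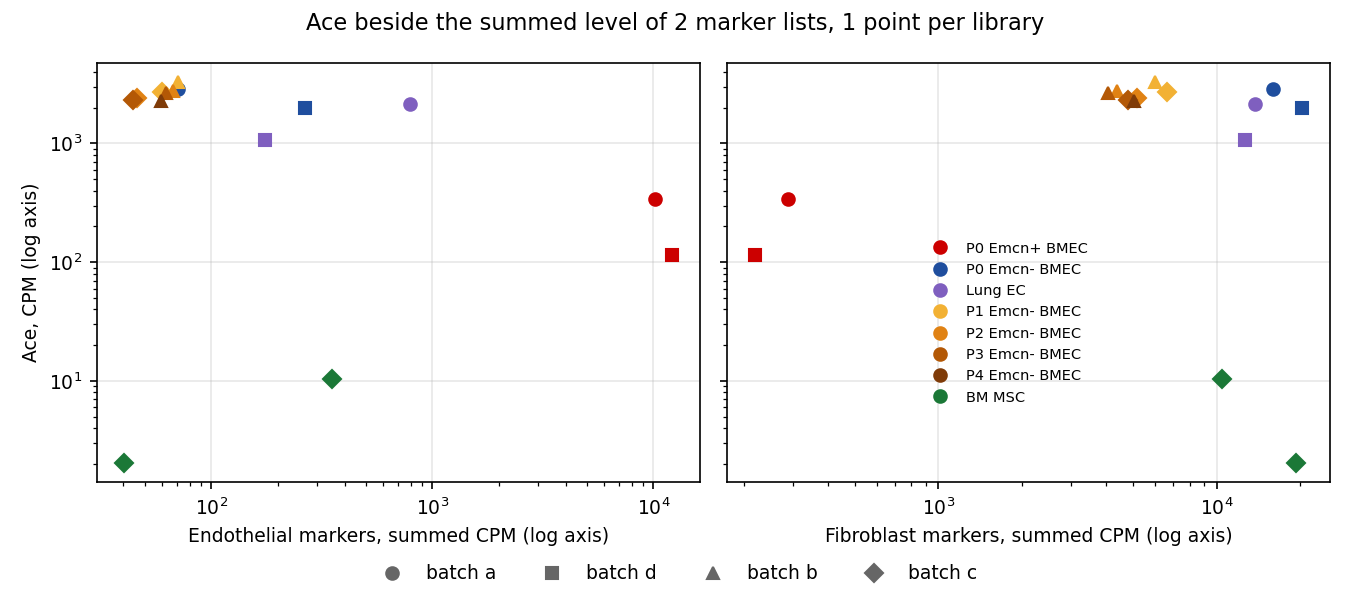
Ace in CPM against the summed CPM of 10 endothelial markers (left) and of 7 fibroblast markers (right), 1 point per library, both axes logarithmic, colour for the condition and symbol for the batch. The P0 Emcn+ libraries lie far right on the endothelial axis with 114 and 339 CPM of Ace, and the BM MSC libraries lie far right on the fibroblast axis with the lowest Ace.

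Agt (ENSMUSG00000031980; chromosome 8 from 124556534 to 124569706, minus strand) encodes angiotensinogen, the precursor of all angiotensin peptides. P1 Emcn- BMECs had the highest levels, at 70.3 and 113 CPM. Levels were 47.2 and 56.4 CPM in P0 Emcn- BMECs, 47.0 and 62.9 CPM in P2, 42.4 and 54.7 CPM in P3, and 60.2 CPM in P4 libraries. Lung ECs had 31.8 and 22.7 CPM, BM MSC 2.22 and 7.31 CPM, and P0 Emcn+ BMECs 3.52 and 1.82 CPM. P1 stood apart from P4, P2, P0 Emcn- and P3, which overlapped, and BM MSC overlapped P0 Emcn+ BMECs at the low end.

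Between the P0 fractions, mean Agt was 19.4-fold lower in the Emcn+ cells (2.67 ± 1.20 against 51.8 ± 6.52 CPM), 31.0-fold in batch a and 13.4-fold in batch d. In BM MSC it was 10.9-fold lower than in P0 Emcn- BMECs, the log2 difference of -3.64 running from -4.48 without BM MSC replicate 2 to -2.80 without replicate 1. Within batch c it was 16.2-fold lower than the mean of P1 to P3. In lung ECs it was 1.90-fold lower, with no overlap between the libraries. The P1 mean was 1.77-fold that of P0 Emcn-, also with no overlap.

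Per kilobase of exon, Ace exceeded Agt by 8.58- to 34.1-fold in the Emcn- BMEC and lung libraries and by 11.6- and 66.8-fold in the P0 Emcn+ libraries. In BM MSC the order was turned, with Agt 3.07- and 1.97-fold above Ace. These ratios are taken within a library and do not depend on how libraries are scaled.

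Agtr1a (ENSMUSG00000049115; chromosome 13 from 30336441 to 30382867, plus strand) encodes the type 1 receptor that mediates most actions of angiotensin II on vessels. It had 18.3 and 82.1 CPM in the P0 Emcn- BMECs. The P1 libraries had 67.4 and 41.5 CPM, those of P2 34.4 and 29.4 CPM, those of P3 16.3 and 15.5 CPM, and that of P4 31.4 CPM. Lung ECs had 6.65 and 12.8 CPM and BM MSC 2.72 and 3.01 CPM. In the P0 Emcn+ BMECs it was nearly absent, with 1 count in replicate 1 (0.0317 CPM, exact 95% Poisson interval 0.000802 to 0.177) and 11 counts in replicate 2 (0.425 CPM, interval 0.212 to 0.761). These intervals cover counting error only.

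The P0 Emcn- libraries exceeded the P0 Emcn+ libraries in Agtr1a by 193-fold in batch a. In batch d the ratio was 577, with a counting interval of 103 to 22813 because of the single count. The log2 difference of -7.21 ran from -8.29 without P0 Emcn- replicate 1 to -6.13 without P0 Emcn- replicate 2. The 2 P0 Emcn- replicates themselves differed more than in Ace or Agt, so that P0 Emcn- overlapped both P1 and P2. The difference between P1 and P0 Emcn- was 0.45 on the log2 scale (SD 1.14), and it ran from -0.63 without P0 Emcn- replicate 1 to 1.53 without P0 Emcn- replicate 2. Lung ECs were 5.15-fold below P0 Emcn- BMECs, 6.41-fold in batch a and 2.75-fold in batch d. That log2 difference of -2.06 ran from -3.14 without P0 Emcn- replicate 1 to -0.98 without P0 Emcn- replicate 2. BM MSC were 10.0-fold below the mean of P1 to P3 within batch c.

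Agtr1a has the near-identical copy Agtr1b, and reads of the pair could be split by the estimate, so both values are uncertain. Agtr1b was at 0 in both P0 Emcn+ libraries and between 0.126 and 3.78 CPM in the other 13. The intronic gene Gm48161 overlaps Agtr1a and was not analysed here.

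Agtr2 (ENSMUSG00000068122; chromosome X from 21484544 to 21489164, plus strand) encodes the type 2 receptor. It was present outside the P0 Emcn+ BMECs in all conditions, BM MSC included. Lung ECs had 178 and 115 CPM, P1 libraries 121 and 92.3, P2 libraries 79.9 and 71.6, P3 libraries 62.5 and 73.1, and the P4 library 96.5 CPM. BM MSC had 100.2 and 27.1 CPM. The P0 Emcn+ BMECs had 9 counts (0.285 CPM, interval 0.130 to 0.541) and 34 counts (1.31 CPM, interval 0.910 to 1.84).

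The P0 Emcn- BMECs gave no firm level for Agtr2, with 17.9 CPM in replicate 1 (batch d) and 241 CPM in replicate 2 (batch a). The same 2 libraries differed in the bone matrix gene Ibsp (2.06 and 137 CPM), in Cdh5 (119 and 6.35 CPM) and in depth (39718807 and 9914620 counts), and the part of these in the difference was not tested. Accordingly, lung ECs had 9.92-fold more Agtr2 than P0 Emcn- BMECs in batch d and 2.10-fold less in batch a. P0 Emcn+ BMECs were below P0 Emcn- in both batches, by 62.9-fold in d and 183-fold in a, and the log2 difference of -6.48 ran from -8.35 without P0 Emcn- replicate 1 to -4.61 without P0 Emcn- replicate 2. The BM MSC replicates, both of batch c, also spread widely. The log2 difference between BM MSC and the mean of P1 to P3 was -0.64 (SD 0.69), and turned from -1.58 without BM MSC replicate 1 to 0.30 without BM MSC replicate 2.

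The balance of the 2 receptors was compared per kilobase of exon within each library. Agtr2 exceeded Agtr1a by 22.4- and 7.51-fold in lung ECs and by 30.8- and 7.54-fold in BM MSC. P1 libraries had ratios of 1.51 and 1.86, P2 libraries 1.95 and 2.04, P3 libraries 3.20 and 3.96, and the P4 library 2.58. In the P0 Emcn- BMECs it was 0.821 and 2.46. Lung and MSC libraries did not overlap any Emcn- BMEC library in this ratio, and P3 lay above P1 and P2 in both batches. The ratios of the P0 Emcn+ libraries, 7.54 and 2.59, rest on 1 and 11 counts of Agtr1a.

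**Figure D3:**
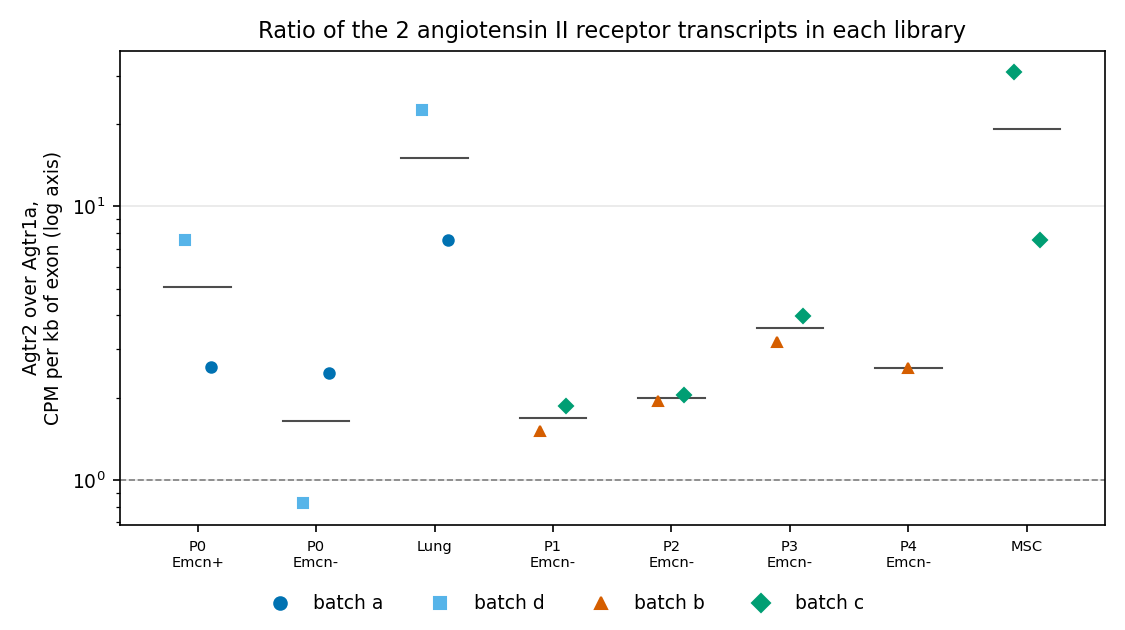
Ratio of Agtr2 to Agtr1a, each as CPM per kilobase of exon (log axis), in each library, with the mean of a condition as a bar, the batch as symbol and colour, and a dashed line at equal levels. Lung ECs and BM MSC lie at 7.51 or more, and Emcn- BMECs between 0.821 and 3.96.

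Over passages, all 4 members were lower at P3 than at P1 in both batches that hold the series. Agtr1a differed most, by -75.8% in batch b (67.4 to 16.3 CPM) and -62.7% in batch c (41.5 to 15.5 CPM). For Agt the differences were -39.7% and -51.7%, for Agtr2 -48.4% and -20.8%, and for Ace -18.6% and -13.9%. In log2 terms the mean differences of P3 from P1 were -1.73 for Agtr1a (SD 0.35), -0.89 for Agt (SD 0.39), -0.64 for Agtr2 (SD 0.23) and -0.26 for Ace (SD 0.17). For each of the 4, both P3 libraries lay below both P1 libraries, as they did for 29.4% of all 19399 genes tested. The order was not carried on at P4, which batch b alone holds. From P3 to P4, Agt went from 42.4 to 60.2 CPM, Agtr1a from 16.3 to 31.4 CPM and Agtr2 from 62.5 to 96.5 CPM, while Ace went from 2677 to 2281 CPM. In the same libraries, macrophage marker sums went from 69.6 and 223 CPM in P1 to 17.2 and 14.0 CPM in P3 (batches b and c in that order) and 11.6 CPM in the P4 library. Fibroblast sums were 5997 to 6637 CPM at P1 and 4082 to 4824 CPM at P3, and at P4 the sum was 5061 CPM, beside 4082 CPM at P3 in the same batch. Their part in the members' levels was not tested.

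**Figure D4:**
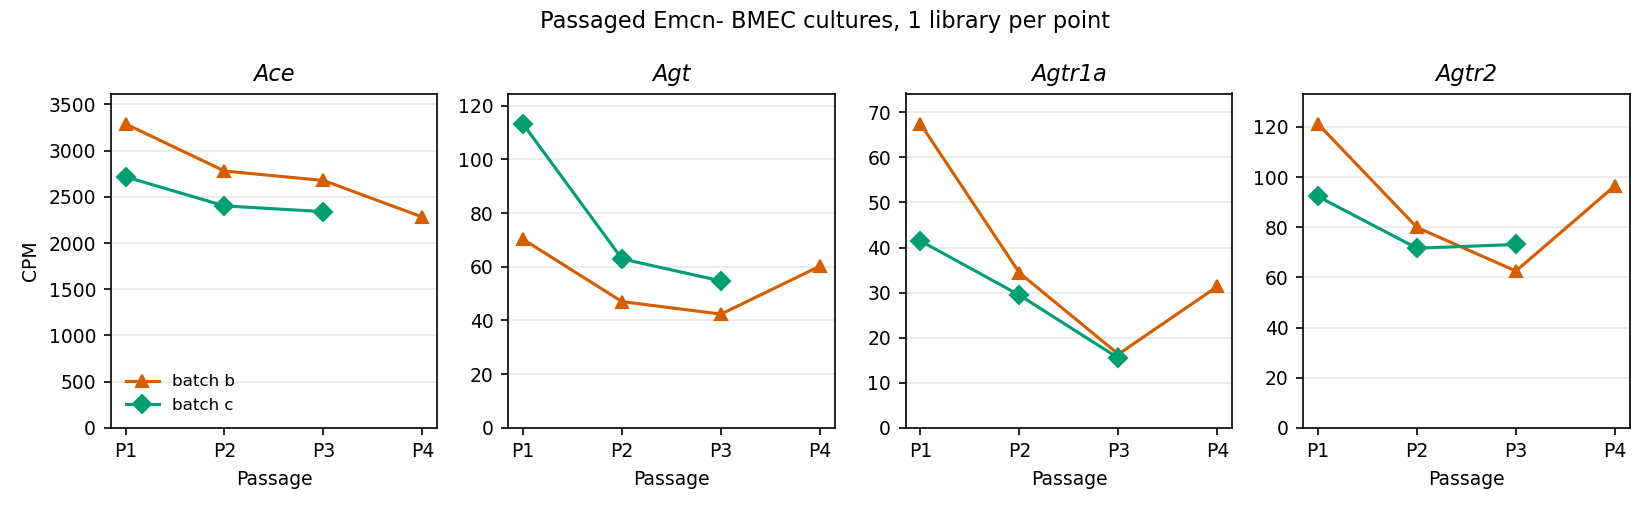
CPM of the members by passage in batch b (P1 to P4) and batch c (P1 to P3), 1 library per point and axes from 0. All members are lower at P3 than at P1, and Agt, Agtr1a and Agtr2 are higher again at P4.

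The genes most like each member were found by Pearson's r of log2(CPM + 1) over the 15 libraries among 11711 genes, as a description of libraries that share conditions and batches. Nearest to Ace were Hif3a (r = 0.985), Zbtb16 (0.984), Capn1 (0.981), Sparcl1 (0.974) and Ifi207 (0.970). Nearest to Agt were Ndrg2 (0.980), Astn2 (0.970), Tmem100 (0.967), Acss3 (0.961) and Slc2a3 (0.958). Agtr1a shared Ndrg2 (0.951) and Astn2 (0.953) with Agt, beside Elmod3 (0.958), Mchr1 (0.956) and Hp (0.952). Nearest to Agtr2 were Rian (0.977), Nrbp2 (0.961), 1110051M20Rik (0.960), Pamr1 (0.955) and Osr1 (0.954).

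For Ace, the likeness rests in part on the P0 Emcn+ and BM MSC libraries. Over the other 11 libraries, r with Ace was 0.71 for Hif3a, 0.53 for Zbtb16 and 0.42 for Sparcl1, and it was -0.14 for Capn1 and -0.17 for Ifi207. For Agt it was 0.83 for Ndrg2, 0.84 for Astn2, 0.81 for Tmem100, 0.65 for Acss3 and 0.51 for Slc2a3. For the 5 genes nearest to Agtr1a it ran from 0.82 to 0.90, and for those nearest to Agtr2 from 0.64 to 0.86. Among the members themselves, r over 15 libraries was 0.91 between Agt and Agtr1a, 0.82 between Ace and Agt and 0.33 between Ace and Agtr2, and over the 11 libraries 0.68, 0.53 and -0.03. Between Ace and Agtr1a it was 0.71 over 15 and 0.81 over 11 libraries, between Agtr1a and Agtr2 0.77 and 0.24, and between Agt and Agtr2 0.65 and -0.05.

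The rest of the pathway was described with a list of 39 genes, 38 of them in the table, for renin and renin-like proteases, angiotensin-processing peptidases, receptors, their partners and the kinin and Ac-SDKP branches. Of these 32 passed the filter and were tested. A response list held 18 genes known to answer angiotensin II or to serve the aldosterone branch, of which 15 were tested. Both lists were chosen with earlier results of these data known, so their shares of called genes are a description. A gene was called at an adjusted p under 0.05 (edgeR's quasi-likelihood test, Benjamini-Hochberg over all 19399 genes) and a log2 fold change above 1.5 or under -1.5. Of the 6 comparisons, 4 share the P0 Emcn- libraries. The replicate block adds terms between batches a and d and between b and c. For P1 or BM MSC against P0 Emcn-, no batch holds both groups, so the block cannot remove a batch difference between them. Replicates are separate libraries, and the paper states that RNA-seq conditions had 2 or more independent biological samples. Its primary cultures counted as independent when begun from different animals. The labels do not name the animal of each library, and where replicates share one the p-values measure technical spread.

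Renin itself was not found beyond trace levels. Ren1 had 30 counts (0.828 CPM) in lung replicate 1 and at most 0.0825 CPM in the others. Mas1, the receptor of angiotensin 1-7, was at 0 but for 0.0304 CPM in BM MSC replicate 2, and Klk1 (tissue kallikrein) had 0 counts. Cathepsin D (Ctsd), an aspartyl protease related to renin, had 802 to 1946 CPM in all libraries, and the prorenin receptor Atp6ap2 47.9 to 131 CPM, neither called in any comparison. Cyp11b2, the aldosterone synthase, had 0 counts throughout.

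In P0 Emcn+ against P0 Emcn- BMECs, 4 of 32 pathway genes rose (12.5%, against 7.79% of all genes) and 7 fell (21.9%, against 11.4% of all genes). With these groups alone in the fit, 4 rose and 4 fell. The list's median log2 fold change was -0.14 (-0.17 with the genes at 0 at their bound, over 28 genes with a value), beside -0.06 over all genes. Of the 14 angiotensin-processing peptidases tested beside Ace, 3 fell, 1 rose and 10 were not called. Enpep (aminopeptidase A, which forms angiotensin III) had 0.602 and 0.696 CPM in the Emcn+ against 48.3 and 49.6 CPM in the Emcn- libraries (log2 fold change of -6.20, SE 0.32, edgeR adjusted p = 1.1e-06). Mme (neprilysin) had 7.57 and 8.23 against 72.1 and 85.9 CPM (-3.29, SE 0.35, edgeR adjusted p = 7.3e-05), and Anpep (aminopeptidase N) 24.1 and 15.6 against 268 and 167 CPM (-3.42, SE 0.59, edgeR adjusted p = 0.0014).

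The kininogens fell too. Kng2 had 3.04 and 1.12 against 42.1 and 61.8 CPM (-4.58, SE 0.63) and Kng1 4.34 and 0.696 against 16.6 and 15.2 CPM (-2.61, SE 0.78). Agtr1b fell from 36 counts to 0, at least 13.9-fold lower against 3 counts over the group. Most of the 36 counts lay in P0 Emcn- replicate 2 (3.13 CPM, against 0.126 CPM in replicate 1), which largely sets that bound. Bdkrb1, the inducible kinin receptor, fell from 17 counts to 1, a ratio of 19.7 (counting interval 3.08 to 822). Most of the 17 counts lay in P0 Emcn- replicate 1 (0.403 CPM, against 0.101 CPM in replicate 2). Without that library the fitted log2 fold change of Bdkrb1 went from -3.75 to -2.23. The calls of Agtr1b and Bdkrb1 were lost with the replicate block (edgeR adjusted p = 0.067 and 0.052), and that of Bdkrb1 with DESeq2 (adjusted p = 0.14). With these groups alone in the fit, neither gene passed the filter on low counts, so neither was tested. Leaving out the first or second Emcn+ library also ended the call of Agtr1b (edgeR adjusted p = 0.10 and 0.085) and of Bdkrb1 (0.071 and 0.15). Agtr1b was further not called without the second Emcn- library (0.16), and Bdkrb1 without the first (0.41). Kng1 was not called without the second Emcn+ library (edgeR adjusted p = 0.10), without the first or second Emcn- library (0.066 and 0.056), or with these groups alone in the fit (0.081).

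The genes that rose in P0 Emcn+ were Prcp, a carboxypeptidase that removes the last residue of angiotensin II (95.9 and 79.0 CPM against 32.4 and 13.2 CPM, log2 fold change 1.95), Mtus1, whose product binds the type 2 receptor (103 and 102 against 23.0 and 25.9 CPM, 2.10), Arrb1, the beta-arrestin 1 gene (303 and 525 against 73.4 and 114 CPM, 2.18), and Tmsb4x, thymosin beta 4, the source of Ac-SDKP (1332 and 1422 against 179 and 262 CPM, 2.68). Without the second Emcn- library, Prcp passed under the fold limit (1.47). Endothelial markers rose with these genes in the same comparison, 9 of 10 being called higher, and all 7 fibroblast markers were called lower. Of the 7 macrophage markers 2 were called higher (Cd68 and Cd14), of 10 mural markers 3 were called higher and 5 lower, and of 5 osteolineage markers 3 were called lower. Their part was not tested.

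Of the 15 response genes in this comparison, 4 rose and 4 fell (26.7% each way, against 7.79% of all genes higher and 11.4% lower), at a median of 0.46 beside -0.06 over all genes. Edn1 (endothelin 1) rose from 11.3 and 24.0 to 330 and 687 CPM (log2 fold change 4.91, SE 0.93, edgeR adjusted p = 0.0025), and Tgfb1 (2.62), Ccl2 (2.41) and Ccn2 (2.37) rose as well. Hsd11b1, which regenerates active glucocorticoid, fell from 20.9 and 13.5 to 0.729 and 0.541 CPM (-4.72), and Spp1 (osteopontin, -3.62), Il6 (-3.06) and Ptgs2 (-2.69) fell. Leaving out the second Emcn+ library ended the calls of Ccl2 and Il6 (edgeR adjusted p = 0.15 and 0.16). Ccl2 was also not called without the second Emcn- library (0.17), Il6 without the first library of either fraction (0.25 for Emcn-, 0.093 for Emcn+), and Ptgs2 without the first Emcn+ library (0.069). The marker lists that moved in this comparison stand beside these genes too, Ccl2 and Tgfb1 among them, which macrophages also express, and their part was not tested. The genes known to answer angiotensin II thus moved in both directions in this comparison.

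In lung ECs against P0 Emcn- BMECs, 1 of 32 pathway genes rose (3.12%, against 2.13% of all genes) and 1 fell (3.12%, against 1.7% of all genes), at a median of 0.03 (0.11 with bounds), beside 0.00 over all genes. The epithelial keratin Krt18 was at 2.04 and 10.3 CPM in the lung ECs and at most 0.271 CPM elsewhere, with Epcam at 0 in lung. Of the 7 macrophage markers 6 were called lower in lung ECs (median log2 fold change -3.70), as were 2 of 10 mural and 1 of 5 osteolineage markers, and of 10 endothelial markers 1 was called higher and 1 lower. The part of other cells was not tested. Enpep fell to 15.05 and 14.80 CPM (log2 fold change -1.65, SE 0.25, edgeR adjusted p = 0.0055). Of the 15 response genes, Hsd11b1 rose to 116 and 110 CPM (2.77, SE 0.53, edgeR adjusted p = 0.015) and no other was called. That call was lost without either Emcn- library (0.056 and 0.079) or the first lung library (0.060). Ptgs2 was called higher with the replicate block (log2 fold change 2.00, edgeR adjusted p = 0.017), no filter (2.08, edgeR adjusted p = 0.019) and DESeq2 (2.10, adjusted p = 0.0051). Ccn2 was called higher with no filter (1.53, edgeR adjusted p = 0.015), DESeq2 (1.53, adjusted p = 0.0024) and without lung replicate 1 (1.95, edgeR adjusted p = 0.036). The response list's median was 0.16.

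In P1 against P0 Emcn- BMECs, 2 of 32 pathway genes rose (6.25%, against 5.78% of all genes) and none fell (3.07% of all genes did), a median of 0.09 beside 0.02 over all genes. Mme rose to 203 and 268 CPM (log2 fold change 1.73, SE 0.33, edgeR adjusted p = 0.0069), a call lost when the first P0 library was left out (0.057). Rgs2, a brake on Gq signalling of the type 1 receptor, rose from 19.6 and 16.0 to 42.4 and 56.03 CPM (1.61, edgeR adjusted p = 0.0042), and was under the fold limit without the second P0 or P1 library (1.46 and 1.43). Of the response genes, 5 of 15 fell and none rose, at a median of -0.61. Among them were Il6 (501 counts to 3, a ratio of 207 with a counting interval of 70.4 to 1007), Ccl2 (-3.93), Ptgs2 (-2.71) and Ccn2 (connective tissue growth factor, -2.22). Most of the 501 Il6 counts lay in P0 Emcn- replicate 1 (11.9 CPM, against 3.03 CPM in replicate 2), so the ratio rests largely on that library. None of these 4 was called without P1 replicate 1 (edgeR adjusted p = 0.059 to 0.081), and without P1 replicate 2 or the first P0 library 2 of them, Ccn2 and Il6, stayed called. Nr3c2, the mineralocorticoid receptor, was called higher with the replicate block (log2 fold change 1.52, edgeR adjusted p = 0.039) and without the second P0 library (2.26, edgeR adjusted p = 0.0092). In the same comparison 3 of 5 osteolineage, 3 of 7 fibroblast, 3 of 10 mural and 1 of 10 endothelial markers were called lower and none of these was called higher, and their part was not tested.

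From P1 to P3, none of the 32 pathway genes was called by edgeR or by DESeq2, beside 0.0773% of all genes called higher and 0.144% called lower. Of the 32 genes, 9 had an unadjusted edgeR p under 0.05, a larger share than over all genes (13.6%). The median was 0.01 (0.03 with bounds) beside -0.01 over all genes. Enpep, from 45.5 and 46.3 to 20.9 and 26.2 CPM, had a log2 fold change of -0.93 (edgeR adjusted p = 0.13). Anpep parted by batch, at 160, 90.9, 78.6 and 72.2 CPM from P1 to P4 in batch b and at 236, 239 and 252 CPM from P1 to P3 in batch c. Cma1 (a mast cell chymase) went from 0.149 and 0 CPM to 2.93 and 0.703 CPM, and was not called (edgeR adjusted p = 0.20). Among the response genes Ccn2 rose, from 22.4 and 41.9 to 240 and 293 CPM (3.09, SE 0.42, edgeR adjusted p = 0.029), and was not called without any 1 of the 4 libraries (0.13 to 0.20). The response list's median was 0.50. Spp1 went from 1423 and 1757 to 5592 and 5387 CPM, and was called with the replicate block (edgeR adjusted p = 0.028) or with the 2 groups alone (0.040). Ptgs2 was called with DESeq2 alone (log2 fold change 2.40, adjusted p = 0.0063). Of the 7 macrophage markers 2 were called lower at P3 (median log2 fold change -2.56), and no marker of another cell type was called. Their part was not tested.

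In BM MSC against P0 Emcn- BMECs, 2 of 32 pathway genes rose (6.25%, against 11.3% of all genes) and 1 fell (3.12%, against 7.44% of all genes). The median was 0.04 (0.13 with bounds) beside 0.01. Mme rose to 845 and 459 CPM (log2 fold change 3.15, SE 0.34, edgeR adjusted p = 0.00015) and Bdkrb2, the constitutive kinin receptor, to 0.617 and 0.731 CPM (2.41). Enpep fell to 9.68 and 19.1 CPM (-1.68, SE 0.25, edgeR adjusted p = 0.00082), and passed under the fold limit without BM MSC replicate 1 (-1.29). With the replicate block, Anpep was called lower (-2.00, edgeR adjusted p = 0.0033) and Gnaq, a G protein subunit of type 1 receptor signalling, higher (1.53, edgeR adjusted p = 9.3e-05). The Bdkrb2 call was lost with the replicate block (edgeR adjusted p = 0.061), DESeq2 (adjusted p = 0.076) or no filter (0.060), with these groups alone in the fit (0.052), and without the first P0 library (0.22) or either MSC library (0.072 and 0.087). Of the response genes Ccn2 (3.76), Ptgs2 (3.61) and Nr3c2 (1.96) rose and none was called lower, at a median of 0.88. Edn1 was called lower with no filter (log2 fold change -2.23, edgeR adjusted p = 0.033), with the replicate block (-2.42, edgeR adjusted p = 0.041) and without BM MSC replicate 2 (-4.62, edgeR adjusted p = 0.0091). Ccl2 was called lower with no filter (-1.89, edgeR adjusted p = 0.038), with DESeq2 (-1.80, adjusted p = 0.030) and without BM MSC replicate 2 (-3.06, edgeR adjusted p = 0.039). Nr3c2 was not called without BM MSC replicate 1 (edgeR adjusted p = 0.063), without the first P0 library (0.052) or with these groups alone (0.11). Of the 7 macrophage markers 6 were called lower in BM MSC, as was 1 of 10 endothelial markers. Of 10 mural markers 2 and of 5 osteolineage markers 1 were called higher, and of 7 fibroblast markers 1 was called higher and 2 lower. Their part was not tested.

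In BM MSC against the mean of P1 to P3, a comparison that batch c alone also holds, 3 of 32 pathway genes rose (9.38%, against 8.42% of all genes) and 1 fell (3.12%, against 5.81% of all genes), at a median of -0.21 (-0.11 with bounds) beside 0.01. Mme rose (log2 fold change 1.83, SE 0.24, edgeR adjusted p = 0.00041) and was under the fold limit without BM MSC replicate 1 (1.29). Anpep, at 78.7 and 71.1 CPM in BM MSC against 236, 239 and 252 CPM from P1 to P3 in the same batch c, had a log2 fold change of -1.31 and was not called. It was called lower with the replicate block (-1.78, edgeR adjusted p = 0.0037) and without P3 replicate 1 (-1.51, edgeR adjusted p = 0.021). Enpep was called lower without BM MSC replicate 2 (-1.75, edgeR adjusted p = 0.00030). Bdkrb1, with 29 counts against 1, and Bdkrb2 (3.17) rose as well. From P1 to P3, Cma1 was at 0.149, 1.08 and 2.93 CPM in batch b. In batch c, which holds BM MSC, it was at 0, 0.365 and 0.703 CPM. Cma1 fell from 176 counts to 1, a ratio of 64.0 (counting interval 11.3 to 2541), a call at an edgeR adjusted p of 0.0497 that was lost with the replicate block (0.056), with RLE factors (0.051) and without 6 of the 8 libraries in turn, all but the second of P1 and of P3 (0.056 to 1.0). Of the response genes, 5 of 15 rose and none fell, at a median of 0.11, while without BM MSC replicate 2 Edn1 and Hsd11b1 were called lower (edgeR adjusted p = 0.029 and 0.010). Among them were Il6 (7.00), Ptgs2 (5.19), Ccn2 (4.30) and Ccl2 (1.82), of which Ccl2 was not called without BM MSC replicate 2 (0.58 as edgeR adjusted p) or without P1 replicate 1 (0.053), P1 replicate 2 (0.066) or P2 replicate 2 (0.068). In the same comparison 6 of 10 endothelial, 6 of 10 mural and 4 of 5 osteolineage markers were called higher. Of 10 endothelial markers 1, and of 7 macrophage markers 3, were called lower, and of 7 fibroblast markers 3 were called higher and 2 lower. Their part was not tested.

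**Figure D5:**
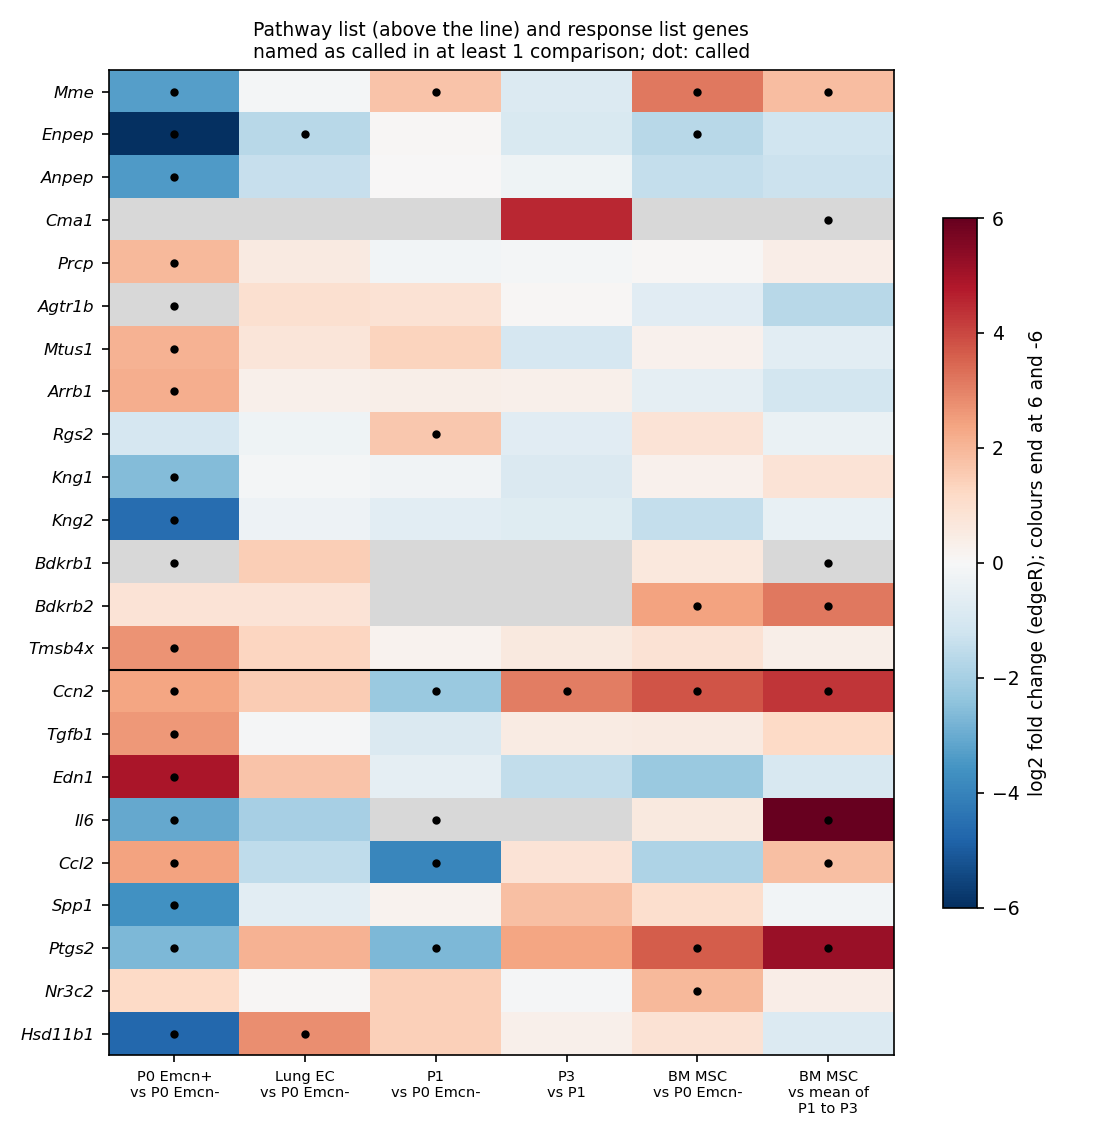
log2 fold change (colour, ending at 6 and -6) of the list genes that are named above as called in at least 1 of 6 comparisons, pathway list above the line and response list below, with a dot where a gene was called. Grey marks comparisons in which a group held at most 3 counts. Mme, Enpep, Anpep and Kng2 are low in P0 Emcn+ BMECs, and Mme is high in BM MSC.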

How the data were processed

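RNA-seq was analysed for 15 libraries, grouped by their labels into 8 conditions. By their methods, the authors mapped reads to GRCm38 with STAR, estimated abundance with Salmon, summarised it per gene with tximport and deposited whole-number counts of 44674 genes without normalization. The rounding and a strand setting are not described. Rows that name no gene, 8 in all, held 0.00199% of counts and were kept out of the tests.

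The members and both gene lists were chosen with earlier results of these data known. CPM was computed on library totals, and member differences are on the log2(CPM + 0.1) scale, without a test. Lists were tested with edgeR 4.0.16 (R 4.3.3), TMM factors and its quasi-likelihood test, all 15 libraries entering 1 fit, after filterByExpr left 19399 genes. Tables used Python 3.11.15. The procedure was tested on simulated data. Alternatives were RLE factors, DESeq2 1.42.0, no filter, no fold limit, the compared groups alone, a replicate block, a pseudocount of 0.5 and leaving out each library. Total depth limits low genes, and intervals cover counting error only.

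Named genes are the members, list genes called in at least 1 comparison or reaching 50 CPM in a library (at most 30 named, and a few called genes are not reported here), and the 5 genes most like each member among genes with 10 CPM or more in a library. The pairing comes from the labels, which give same-numbered P0 and lung libraries, and same-numbered P1 to P3 libraries, 1 batch. Deviations from group means correlated at 0.134 to 0.332 among the former and 0.524 to 0.702 among the latter. Between conditions that share no batch they correlated at 0.0208 to 0.210, which overlaps the range of the former. Coordinates are from GENCODE M21 on GRCm38.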

Additional observations from a re-analysis of the deposited data

How the results depend on the processing

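No member's difference changed direction with TMM or RLE scaling or a pseudocount of 0.5 CPM. Among alternative values of member differences, 194 moved by less than the replicate SD and 6 by more, all 6 in BM MSC against the mean of P1 to P3. With 2 libraries against 2, leaving out 1 cannot move a difference beyond that SD, so these counts do not measure stability. Leaving out 1 library, the difference of BM MSC from the mean of P1 to P3 ran from -10.31 to -8.00 for Ace, -4.73 to -3.06 for Agt and -1.58 to 0.30 for Agtr2. Leaving out 1 library also turned the sign of Agtr2 in lung ECs, P1 and BM MSC and of Agtr1a in P1, each against P0 Emcn-. A within-batch mean could not be had for P1 or BM MSC against P0 Emcn-.

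Among alternative counts of list genes called, 97 stayed within 1.5 times the count reported and 31 did not. Without a fold limit, pathway calls were 4 in lung ECs, 4 in P1, 11 in BM MSC against P0 Emcn- and 11 in BM MSC against P1 to P3, and response calls 5 in BM MSC against P0 Emcn-. Without a filter, response calls were 3 in lung ECs and 5 in BM MSC against P0 Emcn-. With the replicate block, response calls were 2 in lung ECs, 2 in P3 against P1 and 5 in BM MSC against P0 Emcn-. With the compared groups alone there was 1 pathway call in lung ECs and there were 2 response calls in P3 against P1. DESeq2 gave 3 response calls in lung ECs and 2 in P3 against P1. Leaving out 1 library, pathway calls ran from 1 to 3 in lung ECs, P1 and BM MSC against P0 Emcn- and from 2 to 5 in BM MSC against P1 to P3. Response calls ran from 0 to 1 in lung ECs, from 0 to 6 in P1 and from 2 to 5 in BM MSC against P0 Emcn-, and were 0 in P3 against P1. Beyond smaller sets of libraries or genes, the cause was not tested. Genes near 3 counts were limited by depth.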
